A study of Homo sapiens with 16 samples.

Results

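The OTUD5 knockdown in unedited HCT116 cells, labelled WT and of control genotype, was measured by RNA sequencing in 8 of the 16 libraries of the series, chosen by their library names and treatment labels. HCT116 is a human cell line established from a colon cancer. The knockdown group was 4 libraries of cells reverse transfected with a mix of 4 siRNAs against OTUD5 (knockdown below), and its control was 4 libraries of the same cells given a scrambled siRNA (scramble below), both at 50 nM with a lipid reagent for 48 hours. The other 8 libraries came from HCT116 cells labelled as carrying a truncation of Rpn10, a ubiquitin receptor of the proteasome. Of these, 4 had OTUD5 siRNA and 4 had scrambled siRNA at the same dose and time. Their values are given below only where the knockdown effect is compared between genotypes. All 16 libraries were fitted together, however, so these 8 share in the filter, the scaling and the estimate of spread behind the tests in unedited cells. All knockdown libraries received the same siRNA mix, so loss of OTUD5 and effects of the mix on other transcripts cannot be told apart. The labels name 1 cell line, 1 dose and 1 time point, and replicates are marked as biological with no culture named, so the tests reflect how far the libraries of a group lie apart, which may be technical.

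OTUD5, also known as DUBA, is a deubiquitinase of the ovarian tumour (OTU) family, enzymes that remove ubiquitin chains from other proteins. It is known for trimming ubiquitin from TRAF3, which limits the type I interferon response, and for stabilising p53 and PDCD5, a protein that helps p53 act. The transcription factor p53 drives genes of cell cycle arrest, death and repair, foremost CDKN1A, whose product p21 blocks the kinases that start S phase. E2F factors switch on the replication genes before S phase, and their sites read close to TTTGGCGC or TTTCCCGC. Genes of mitosis peak later, and many are controlled through a CHR element, TTTGAA, and CCAAT boxes near their start.

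Because replication and mitosis genes are known for different promoter elements, the starts of 5 of them are shown, with a promoter of the antioxidant response beside them. Each is a RefSeq window on GRCh38.p14 of 250 bases before to 50 bases after a start, 5′ to 3′ on the gene's strand, and capitals mark every match, on either strand, to any of the words whose shares follow the sequences. GINS1 (chr20:25407423-25407722, plus strand), LIG1 (chr19:48170295-48170594, minus strand) and GINS2 (chr16:85688905-85689204, minus strand) are the 3 replication genes with the largest called falls among those with a single window that holds TTTGGCGC or TTTCCCGC.
GINS1: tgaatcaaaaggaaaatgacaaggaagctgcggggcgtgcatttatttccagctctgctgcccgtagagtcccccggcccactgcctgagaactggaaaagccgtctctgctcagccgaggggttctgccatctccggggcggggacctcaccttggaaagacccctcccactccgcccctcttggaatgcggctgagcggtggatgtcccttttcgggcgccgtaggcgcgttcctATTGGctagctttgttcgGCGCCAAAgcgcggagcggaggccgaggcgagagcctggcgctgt
LIG1: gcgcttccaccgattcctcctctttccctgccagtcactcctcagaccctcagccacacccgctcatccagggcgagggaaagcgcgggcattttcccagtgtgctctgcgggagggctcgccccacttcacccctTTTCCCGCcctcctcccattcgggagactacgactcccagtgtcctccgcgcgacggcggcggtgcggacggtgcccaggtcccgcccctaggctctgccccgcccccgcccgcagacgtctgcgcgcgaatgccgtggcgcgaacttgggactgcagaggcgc
GINS2: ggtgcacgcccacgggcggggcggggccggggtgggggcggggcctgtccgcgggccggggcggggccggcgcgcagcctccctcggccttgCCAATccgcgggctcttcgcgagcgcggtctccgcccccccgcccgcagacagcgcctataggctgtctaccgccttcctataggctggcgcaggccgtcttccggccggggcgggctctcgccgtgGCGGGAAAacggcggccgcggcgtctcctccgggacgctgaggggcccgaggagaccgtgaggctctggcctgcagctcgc
TOP2A (chr17:40417847-40418146, minus strand) and CENPF (chr1:214602945-214603244, plus strand) are the 2 mitosis genes with the highest levels among those that passed no test and hold TTTGAA and CCAAT.
TOP2A: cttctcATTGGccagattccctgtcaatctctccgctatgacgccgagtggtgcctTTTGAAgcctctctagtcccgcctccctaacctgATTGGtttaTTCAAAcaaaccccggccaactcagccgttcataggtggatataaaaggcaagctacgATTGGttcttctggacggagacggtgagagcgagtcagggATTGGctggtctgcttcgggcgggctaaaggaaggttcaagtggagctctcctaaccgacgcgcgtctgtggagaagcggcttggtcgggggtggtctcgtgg
CENPF: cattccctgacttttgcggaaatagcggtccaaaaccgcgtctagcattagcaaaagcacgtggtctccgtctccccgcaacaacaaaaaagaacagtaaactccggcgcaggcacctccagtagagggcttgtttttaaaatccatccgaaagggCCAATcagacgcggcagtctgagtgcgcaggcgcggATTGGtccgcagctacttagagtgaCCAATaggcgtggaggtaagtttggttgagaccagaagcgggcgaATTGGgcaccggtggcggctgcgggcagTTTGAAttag
GCLM (chr1:93909381-93909680, minus strand) is the target of the antioxidant factor NRF2 with the largest rise among those whose single window holds TGACNNNGC, the core of the element that NRF2 binds.
GCLM: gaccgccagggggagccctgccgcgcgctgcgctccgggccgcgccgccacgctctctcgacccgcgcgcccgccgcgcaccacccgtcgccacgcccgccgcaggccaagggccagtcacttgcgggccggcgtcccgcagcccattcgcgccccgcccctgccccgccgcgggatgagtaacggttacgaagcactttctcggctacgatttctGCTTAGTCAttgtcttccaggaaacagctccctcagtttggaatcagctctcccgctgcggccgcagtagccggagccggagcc

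Of 11665 tested genes with a window, 4.49% held TTTGGCGC or TTTCCCGC, 13.5% held TTTGAA, 42.8% held CCAAT and 19.4% held TGACNNNGC, on either strand. Among replication genes, TTTGGCGC or TTTCCCGC stood in the windows of 20 of 44, and TTTGAA in 2. Among mitosis genes, TTTGAA stood in 19 of 27 windows and either E2F word in 1. CCAAT stood in 27 of the replication windows (61.4%) and 21 of the mitosis windows (77.8%). The replication and mitosis windows shown were picked by call as well as by word, so they cannot show a link between word and call. Among replication genes called lower, either E2F word stood in 15 of 29 windows. Among mitosis genes called lower, TTTGAA stood in 6 of 9 windows and CCAAT in 7. Of a list of NRF2 targets and regulators, 6 of 25 held TGACNNNGC. These are matches of letters in a short window, and binding was not measured.

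The 8 libraries held between 28817912 and 29313424 counts each. Markers of colon epithelium were present in part, with EPCAM at a mean of 177 ± 8.02 CPM (counts per 1000000 of scaled library size, ± SD over 4 libraries) in knockdown cells and 220.0 ± 11.7 in scramble cells, and with KRT8, KRT18, KRT19 and CDH1 also expressed. VIL1 and LGALS4 were too low to be tested. CDH17 was tested but stood at only 0.034 to 0.48 CPM in knockdown libraries and 0.068 to 0.34 CPM in scramble libraries. The summed level of the 8 colon markers was 4109 to 5026 CPM in knockdown libraries and 3862 to 4341 CPM in scramble libraries. KRT8 alone gave 2244.5 to 3016.1 CPM and 2000.3 to 2238.7 CPM of it in that order. The number of genes with at least 1 count was 32264 in knockdown replicate 3 and lay between 26225 and 27765 elsewhere. The summed level of 5 myeloid and leukocyte markers was 1.13 to 4.30 CPM in knockdown libraries and 1.33 to 17.5 CPM in scramble libraries, where scramble replicate 4 held the highest value and the other 3 reached 1.44. The leukocyte antigen gene PTPRC alone stood at 11.2 CPM in scramble replicate 4. The 5 liver and erythroid markers summed to 9.35 to 49.6 CPM in knockdown libraries and 7.97 to 19.3 CPM in scramble libraries, with knockdown replicate 3 highest. The 5 neural markers summed to 16.6 to 20.99 CPM in knockdown libraries and 7.47 to 9.88 CPM in scramble libraries, where MAP2, a microtubule protein that other cells use too, rose (1.48 ± 0.12) and SYP rose (0.50 ± 0.15), and the neuronal nuclear marker RBFOX3, GFAP and SOX10 each stayed low in both groups. Of 3 tested fibroblast markers 2 rose (1 without any one of knockdown replicate 3 and scramble replicates 1 and 2) and 1 fell. Of 3 tested endothelial markers 1 rose, and the sums of both lists overlapped between the groups. Whether other cell types had a part in the results was not tested. Knockdown replicate 2 lay farthest from its own group on the leading component of the 8 libraries, which carried 51.5% of the variance and separated the groups.

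OTUD5 (ENSG00000068308, chromosome X, 48922028 to 48958386 on GRCh38 in the GENCODE 29 annotation) was measured at 19.2, 17.4, 21.8 and 22.1 CPM in the 4 knockdown libraries and 90.4, 88.1, 83.7 and 90.9 CPM in the 4 scramble libraries. The groups lay far apart, and the log2 fold change was -2.13 ± 0.07 (± standard error here and below), with an adjusted p of 1.1e-16 by edgeR's quasi-likelihood test. A gene is called below when this p, adjusted by Benjamini-Hochberg over all 17104 tested genes, was under 0.05. Among the other OTU deubiquitinases, 6 of 14 rose and 4 fell, all by less than OTUD5, beside 50.3% of all tested genes called. OTUD6B stood at -0.69 ± 0.07, OTUB2 at -0.55 ± 0.08 and OTUD1 at 0.43 ± 0.12. OTULIN, which cleaves linear ubiquitin chains, fell with a log2 change of -0.34 ± 0.06, and TNFAIP3, also known as A20, a brake on NF-kB, rose by 0.34 ± 0.09.

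Of 19 genes whose proteins bind OTUD5 or are its substrates, 4 rose and 6 fell, a share near that of all tested genes called (50.3%). PDCD5 was lowest among them, with 41.7, 40.1, 38.8 and 45.7 CPM in knockdown libraries and 89.5, 78.3, 82.5 and 86.2 CPM in scramble libraries. These values do not overlap, and the log2 fold change was -1.02 ± 0.07. STING1, the adaptor of cytosolic DNA sensing, fell (-0.69 ± 0.10), as did the deacetylase HDAC2 (-0.49 ± 0.06) and the SWI/SNF ATPase SMARCA4 (-0.45 ± 0.05). TRAF3 rose by a log2 of 0.19 ± 0.05. Transcript levels do not measure the proteins, which are where OTUD5 acts.

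**Figure D1:**
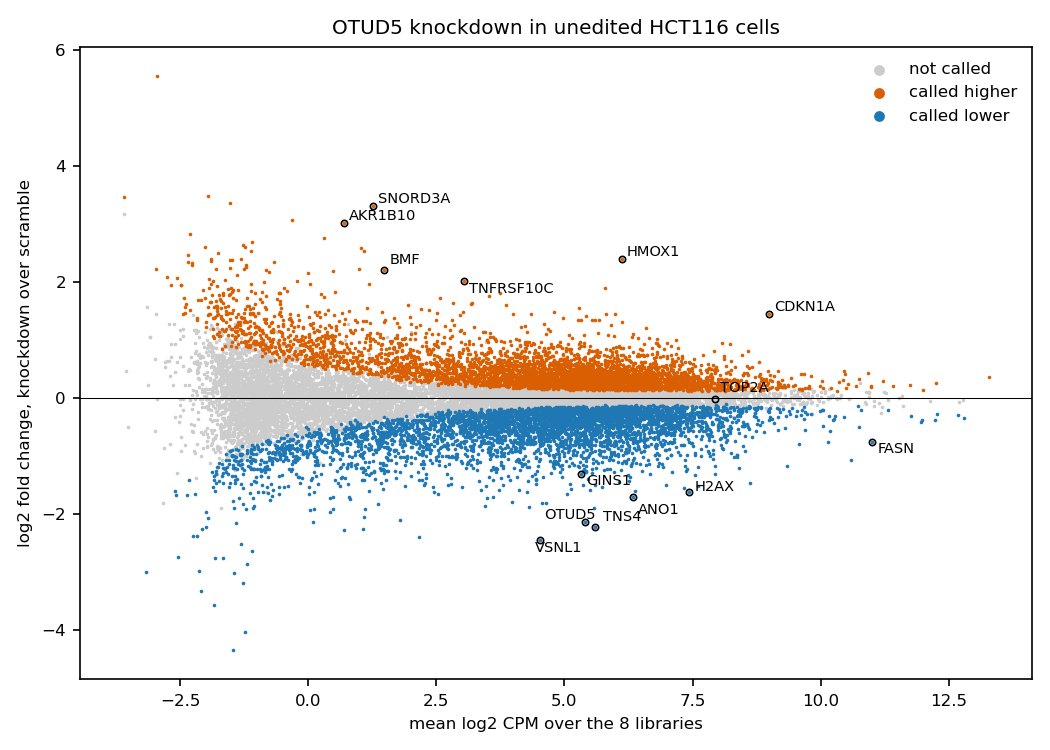
Log2 fold change of the knockdown (vertical axis) against mean log2 CPM over the 8 libraries (horizontal axis) for all 17104 tested genes. Called genes are coloured and labelled genes are named in the text. OTUD5 lies at -2.13, and most called genes sit within 1 log2 unit of 0.

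Across all genes, 8604 of 17104 were called (50.3%), 4317 higher (25.2%) and 4287 lower (25.1%), and the median change of all tested genes was 0.006. Most changes were small, since 5630 of the called genes moved by less than 1.5-fold. At least 2-fold change was seen in 978 called genes (5.72%), 444 higher (2.6%) and 534 lower (3.12%). The 2 groups of libraries did not overlap in 7077 genes (41.4%). The plot of fold change against level shows calls of both signs at all levels. Counts of list members below are to be read against these shares.

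The largest changes are given for genes that have a symbol, whose groups of libraries lie apart and whose log2 CPM averages 1 or more, and genes where it averages 6 or more are called abundant. The largest rise among abundant genes was HMOX1, the haem-degrading oxygenase, at 141, 216, 129 and 159.7 CPM in knockdown libraries and 33.5, 27.0, 28.2 and 33.5 CPM in scramble libraries. All 4 knockdown libraries stood several-fold above all 4 scramble libraries, with a log2 fold change of 2.40 ± 0.12. CDKN1A followed among abundant genes, at 868, 815, 839 and 865 CPM in knockdown libraries against 318, 307, 313 and 296 CPM in scramble libraries and a log2 fold change of 1.46 ± 0.05. Next came PHLDA3, an inhibitor of AKT (1.32 ± 0.08), GCLM, the modifier subunit of the enzyme that starts glutathione synthesis (1.20 ± 0.08), the sterol enzyme MSMO1 (1.11 ± 0.07), the p53 phosphatase PPM1D (1.05 ± 0.07), CRIM1 (1.03 ± 0.10), the BH3-only death gene PMAIP1 (1.03 ± 0.08), EPS8, an actin regulator of receptor signalling (1.02 ± 0.06), and NACC2 (0.99 ± 0.05).

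Among less abundant genes, BMF, a BH3-only activator of apoptosis, was at 5.89, 5.96, 5.26 and 6.17 CPM in knockdown libraries and 1.26, 1.28, 1.21 and 1.28 CPM in scramble libraries, a log2 fold change of 2.21 ± 0.12. TNFRSF10C, a decoy receptor for the death ligand TRAIL, was at 16.9, 15.6, 15.4 and 18.1 CPM in knockdown libraries and 3.94, 3.19, 3.63 and 5.64 CPM in scramble libraries, a log2 fold change of 2.01 ± 0.13. Both were higher in every knockdown library than in any scramble library. The acid-sensing channel gene ASIC4 rose at a low level, averaging 4.94 ± 0.380 CPM in knockdown cells and 0.847 ± 0.134 CPM in scramble cells. Other large rises were in the carboxypeptidase CPA4 (1.90 ± 0.12), the matrix protein tenascin-X gene TNXB (1.76 ± 0.14), the keratin KRT80 (1.73 ± 0.20), FCGBP, which encodes a mucus protein (1.64 ± 0.14), the glycosyltransferase B3GALT5 (1.63 ± 0.19) and the zinc finger gene ZNF608 (1.61 ± 0.09). SNORD3A, the U3 small nucleolar RNA, had the largest change at that minimum (3.32 ± 0.18), but near-identical copies of it elsewhere in the genome make its count uncertain.

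The largest fall at that minimum belonged to VSNL1, a neuronal calcium sensor, at 11.2, 8.23, 9.85 and 9.71 CPM in knockdown libraries and 54.0, 53.2, 55.4 and 51.7 CPM in scramble libraries. The groups lay far apart, with a log2 fold change of -2.46 ± 0.09. TNS4, a tensin of focal adhesions, was at 23.8, 24.1, 19.8 and 22.2 CPM in knockdown libraries and 105, 109, 97.8 and 107 CPM in scramble libraries, with no overlap and a log2 fold change of -2.22 ± 0.08. The kisspeptin receptor KISS1R (-2.39 ± 0.16), the glycerate kinase GLYCTK (-2.25 ± 0.19), MXRA8 (-2.10 ± 0.17), the B cell survival receptor TNFRSF13C (-2.05 ± 0.21), the adhesion molecule MCAM (-1.90 ± 0.09), NOTUM, an enzyme that inactivates Wnt ligands (-1.88 ± 0.10), SH2D5 (-1.87 ± 0.10), the intermediate filament gene DES (-1.84 ± 0.16), SNN (-1.81 ± 0.10), ABHD14B (-1.81 ± 0.11) and PRF1, which encodes perforin (-1.79 ± 0.15), fell as well.

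Among abundant genes the calcium-activated chloride channel ANO1 fell most, at 46.1, 43.6, 42.4 and 47.1 CPM in knockdown libraries and 145, 139, 149 and 153 CPM in scramble libraries, a log2 fold change of -1.71 ± 0.06. H2AX, the histone variant marked at DNA breaks, was next at 100.2, 84.5, 97.1 and 116 CPM in knockdown libraries and 318, 282, 280.1 and 346 CPM in scramble libraries (-1.63 ± 0.08). For both genes the highest knockdown library stayed well under the lowest scramble library. PFN2, a profilin that binds actin (-1.61 ± 0.08), the peptide hydrolase APEH (-1.56 ± 0.09), the actin-binding TRIOBP (-1.52 ± 0.09), the metalloprotease ADAM15 (-1.51 ± 0.08), the hemidesmosome integrin ITGB4 (-1.46 ± 0.12), TINAGL1 (-1.45 ± 0.06), the ubiquitin ligase RNF167 (-1.43 ± 0.06) and AGO1 (-1.36 ± 0.10) completed the 10 largest falls at that level.

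**Figure D2:**
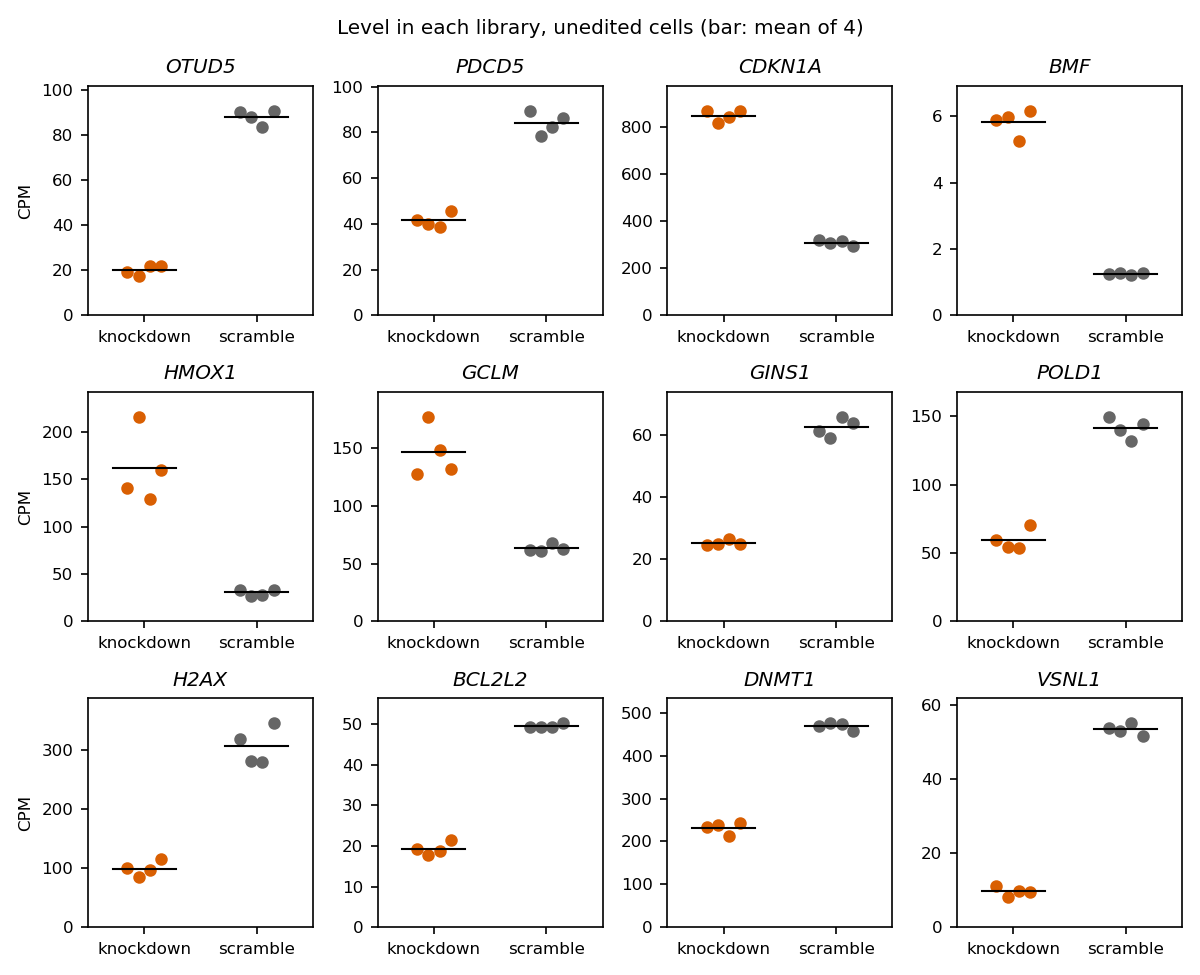
CPM in each library for 12 genes described in the text, with the 4 knockdown libraries on the left and the 4 scramble libraries on the right of each panel and a bar at each group mean. The vertical axis of each panel starts at 0 CPM. The groups do not overlap in any of the 12 panels.

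Most replication genes fell. Of 51 tested, 34 were called lower and 5 higher (3 without scramble replicate 2), with a median log2 change of -0.25. In the replicative helicase 11 of 11 members fell. GINS1, which binds the MCM ring to CDC45, was at 24.5, 24.98, 26.5 and 25.00 CPM in knockdown libraries and 61.4, 59.2, 66.0 and 63.8 CPM in scramble libraries (-1.31 ± 0.06), and no library of one group reached the other. GINS2 (-1.05 ± 0.07), GINS3 (-0.73 ± 0.09), CDC45 (-0.72 ± 0.06) and MCM4 (-0.74 ± 0.05) fell with it. MCM5, part of the ring itself, was at 156, 171, 152 and 179.8 CPM in knockdown libraries and 352, 332, 326 and 362 CPM in scramble libraries (-1.06 ± 0.06), again without overlap.

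At the replication fork, 14 of 24 genes fell and 1 rose. POLD1, the catalytic subunit of the lagging-strand polymerase delta, was at 59.8, 54.5, 53.5 and 70.2 CPM in knockdown libraries and 149.9, 140.1, 132 and 145 CPM in scramble libraries (-1.25 ± 0.08). Its partner subunit POLD2 fell too (-0.88 ± 0.06), and no knockdown library reached the scramble range of POLD1. The ligase LIG1, which seals Okazaki fragments (-1.12 ± 0.07), and the fork protector TIMELESS (-0.98 ± 0.05) fell, and the sliding clamp PCNA, also a p53 target, was not called (0.13 ± 0.06, adjusted p = 0.0722 by edgeR) but was without scramble replicate 4 (adjusted p = 0.0394) or knockdown replicate 3 (adjusted p = 0.038). Among 6 genes of nucleotide supply 5 fell, among them DUT (-0.56 ± 0.06) and TYMS (-0.54 ± 0.07), and RRM2, a subunit of ribonucleotide reductase, rose (0.18 ± 0.06), a call lost without knockdown replicates 2 and 3 together (adjusted p = 0.111). Of the 10 origin genes, 4 fell, among them the licensing factor CDT1 (-0.50 ± 0.06), and 3 rose, namely ORC2, ORC5 and ORC6 (0.29 ± 0.06).

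Most mitosis genes were not called. Of 34 tested, 10 fell and 3 rose, with a median of -0.065. TOP2A, the topoisomerase that untangles sister chromatids, averaged 245 ± 19.2 CPM in knockdown cells and 247 ± 17.2 CPM in scramble cells (-0.011 ± 0.06) and was not called, nor was CENPF (-0.15 ± 0.08), which was called without knockdown replicates 2 and 3 together (-0.24, adjusted p = 0.0496 by edgeR). The falls were in separase, ESPL1 (-0.68 ± 0.07), in the kinetochore genes SPC24 (-0.64 ± 0.08), SPC25 (-0.60 ± 0.07) and CENPA (-0.60 ± 0.07), in AURKB (-0.59 ± 0.06) and in the kinesin KIF20A (-0.52 ± 0.05). The kinase AURKA rose (0.29 ± 0.05), as did the kinesin KIF4A (0.28 ± 0.06). With the trend of counts with transcript GC content removed from each library, an alternative added after seeing the data, 19 mitosis genes were called lower in place of 10, TOP2A (-0.11) and CENPF (-0.23) among them, and 32 replication genes were.

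**Figure D3:**
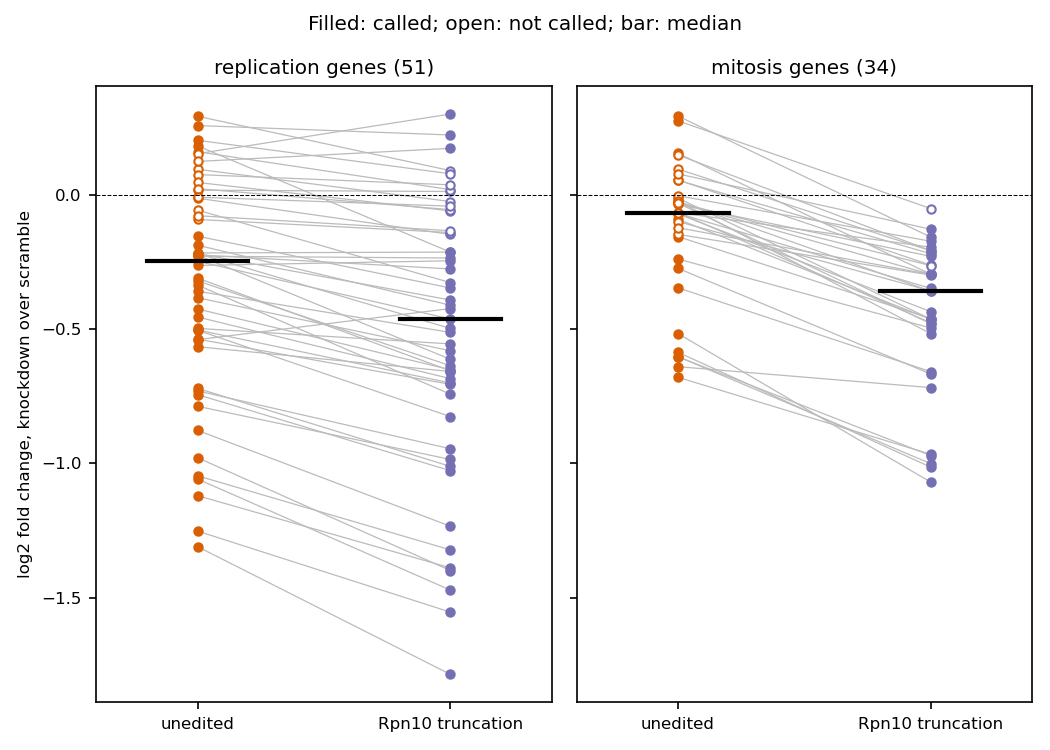
Log2 fold change of the knockdown for each of the 51 replication genes and 34 mitosis genes, in unedited cells (left column of each pair) and in Rpn10 truncation cells (right column), each line joining the values of 1 gene and filled points being called. Replication genes lie mostly below 0 in both genotypes, and mitosis genes lie near 0 in unedited cells (median -0.07) and lower in truncation cells (median -0.36).

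Of the cell cycle control genes, 6 of 26 rose and 9 fell. CDKN1B, the inhibitor p27, rose (0.81 ± 0.06), CDKN2B, the inhibitor p15, rose (0.70 ± 0.07), and the G1 kinase CDK4 fell (-0.72 ± 0.06). The activator genes E2F1 (-0.46 ± 0.07) and E2F2 (-0.63 ± 0.05) fell, while E2F7, an atypical E2F that represses and a p53 target, rose (0.54 ± 0.09) and the other atypical member E2F8 fell (-0.44 ± 0.08). The cyclins CCND1 (0.11 ± 0.06), CCNE1 (-0.067 ± 0.07) and CCNB1 (-0.047 ± 0.05) were not called. Of 17 genes tied to growth arrest and quiescence 10 rose, with YPEL3 at 1.10 ± 0.12, FOXO3 at 0.73 ± 0.07 and PDCD4, a brake on translation, at 0.70 ± 0.08. TXNIP, which is in that list, averaged 0.660 ± 0.605 CPM in knockdown cells and 2.07 ± 3.79 CPM in scramble cells and was not called. Scramble replicate 4, the library that also held the leukocyte transcripts, had 7.75 CPM of it. The other scramble libraries had 0.17 CPM each and the knockdown libraries 0.14, 0.56, 1.53 and 0.42 CPM, all very low levels. Without scramble replicate 4 the log2 change was 1.90 with an adjusted p of 0.0222 by edgeR. The fall, in contrast, was called without any one of the other scramble libraries or knockdown replicate 3 (adjusted p up to 0.0434).

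Most p53 targets rose. Of 34 tested, 27 were called higher and 2 lower, with a median of 0.63. Of the 10 tested targets that promote death 9 rose, including PMAIP1, BAX (0.76 ± 0.06), the death receptors FAS (0.81 ± 0.09) and TNFRSF10B (0.72 ± 0.05), the nuclease AEN (0.91 ± 0.08) and BBC3, also known as PUMA (0.57 ± 0.07). Of 10 arrest targets 7 rose, with SESN1 (1.15 ± 0.06) and SESN2 (1.09 ± 0.09), which restrain growth signalling, GADD45A (0.95 ± 0.06) and BTG2 (0.88 ± 0.05) beside CDKN1A. Among targets that feed back on p53, PPM1D and MDM2, the ligase that degrades p53 (0.43 ± 0.07), rose. Upstream of p53, the kinase ATM (0.32 ± 0.09), the damage adaptor TP53BP1 (0.33 ± 0.06) and the p53 inhibitor MDM4 (0.23 ± 0.06) rose, calls lost for ATM and MDM4 without knockdown replicates 2 and 3 together (adjusted p = 0.0907 and 0.0668). Among repair targets POLH, a translesion polymerase, rose (0.89 ± 0.07). The called falls were in ZNF385A (-0.22 ± 0.06) and FDXR (-0.22 ± 0.07), and neither was called with the GC trend removed (0.045 and 0.0022 in that order) or without knockdown replicates 2 and 3 together.

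Apoptosis genes outside that list moved in both directions, 16 of 30 higher and 8 lower. Within the BCL2 family the survival genes BCL2L2 (-1.36 ± 0.07) and BCL2L1 (-0.78 ± 0.07) fell, and MCL1 rose (0.26 ± 0.05). The killers BMF and BCL2L11, also known as BIM (0.50 ± 0.06), rose, and BAK1 (-0.46 ± 0.07) and BAD (-0.90 ± 0.14) fell. BCL2L2, a close relative of BCL2, was at 19.3, 17.7, 18.8 and 21.6 CPM in knockdown libraries and 49.2, 49.2, 49.2 and 50.4 CPM in scramble libraries. No knockdown library reached the scramble range. The inhibitors of apoptosis BIRC2 (0.54 ± 0.06) and XIAP (0.38 ± 0.07) rose.

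Of 45 DNA repair genes 19 fell and 6 rose. In the Fanconi anaemia pathway, which repairs crosslinks, FANCD2 (-1.01 ± 0.06), FANCG (-0.99 ± 0.06) and FANCE (-0.69 ± 0.06) fell. XRCC1, the scaffold of single-strand break repair (-0.93 ± 0.08), and the helicase ERCC2 (-0.75 ± 0.07) fell, and ERCC6, which couples repair to transcription, rose (0.81 ± 0.09). End joining had 1 call in 6 genes, a rise of XRCC4 (0.42 ± 0.08).

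Chromatin regulators included 21 that rose and 11 that fell of 44. The maintenance methyltransferase DNMT1, which copies DNA methylation behind the fork, was at 234, 238, 214 and 243 CPM in knockdown libraries and 469, 477, 472 and 458 CPM in scramble libraries (-1.01 ± 0.06), and its partner UHRF1 fell too (-0.73 ± 0.06). Their groups did not overlap. The demethylating enzymes TET1 (0.67 ± 0.15) and TET2 (0.69 ± 0.10) rose, as did the methyltransferase DNMT3B (0.41 ± 0.06). The histone demethylase KDM5B, at 99.6, 89.9, 99.6 and 82.0 CPM in knockdown libraries and 39.9, 38.6, 40.3 and 36.6 CPM in scramble libraries, rose by 1.25 ± 0.07. Of 13 Polycomb genes 8 rose and 3 fell, with CBX7 at -0.45 ± 0.10. Of the replication-coupled histone list, 18 of 47 genes could be tested. In the transcription elongation list, the kinase CDK9 fell (-0.90 ± 0.07), while ELL2 rose (0.72 ± 0.07).

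Genes of the NRF2 list moved both ways. Of 35 tested genes 17 rose and 9 fell. In the redox arm HMOX1, OSGIN1 (1.41 ± 0.08), the ferritin chains FTH1 (0.62 ± 0.08) and FTL (0.47 ± 0.06) and TXNRD1 (0.28 ± 0.06) rose, and SRXN1 fell (-0.76 ± 0.15). In the glutathione arm GCLM was at 128, 177, 148 and 132 CPM in knockdown libraries and 61.9, 61.0, 68.2 and 62.8 CPM in scramble libraries, a clear separation, and its catalytic partner GCLC rose by less (0.39 ± 0.05). The NADPH-supplying enzymes PGD (-0.43 ± 0.05) and TALDO1 (-0.64 ± 0.06) of the same arm fell. BACH1, which represses HMOX1, fell (-0.69 ± 0.08). AKR1B10 averaged 4.38 ± 0.661 CPM in knockdown cells and 0.533 ± 0.0734 CPM in scramble cells (3.03 ± 0.17), and reads from its near-identical relatives make that value uncertain. Among the metallothioneins, which bind zinc and copper, MT2A was at 155, 186, 128 and 183 CPM in knockdown libraries and 358, 312, 289.8 and 352 CPM in scramble libraries (-1.01 ± 0.09). MT1X (-1.001 ± 0.19) and MT1E (-0.76 ± 0.10) fell too, while their activator MTF1 rose (0.45 ± 0.07).

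Lipid genes moved differently for sterols and for fatty acids. Of 28 cholesterol genes 13 rose and 6 fell, with HMGCS1 (0.84 ± 0.06) and SC5D (0.85 ± 0.06) higher beside MSMO1, and LSS lower (-0.70 ± 0.08). Of 10 fatty acid genes 7 fell and none was called higher. FASN, the fatty acid synthase, was at 1738, 1271, 1666 and 1722 CPM in knockdown libraries and 2795, 2771, 2729.8 and 2509 CPM in scramble libraries (-0.76 ± 0.08). The desaturases FADS2 (-0.88 ± 0.09), FADS1 (-0.74 ± 0.10) and SCD (-0.51 ± 0.12) fell with it. SREBF1, whose product drives fatty acid genes, fell (-0.94 ± 0.11), and SREBF2, which drives cholesterol genes, was not called (0.13 ± 0.06, adjusted p = 0.0621 by edgeR) but was by DESeq2 (adjusted p = 0.0417) and by edgeR without knockdown replicate 2 (adjusted p = 0.00138).

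Stress programmes of protein folding and supply moved unevenly. Of 28 heat shock genes 12 fell, with DNAJA4 (-0.95 ± 0.07), DNAJB1 (-0.82 ± 0.06) and their activator HSF1 (-0.39 ± 0.06) lower, the last not called with the GC trend removed (adjusted p = 0.0645). In the amino acid response led by ATF4 10 of 28 rose and 6 fell. ATF3 (1.35 ± 0.12), CHAC1 (0.98 ± 0.12), DDIT3, also known as CHOP (0.84 ± 0.14), and GDF15 (0.94 ± 0.07) rose, ASNS was not called (0.25 ± 0.20), and the mitochondrial serine enzyme SHMT2 fell (-1.33 ± 0.07). ATF3, SESN2 and GDF15 are p53 targets as well. SHMT2 was at 124, 101, 119 and 133 CPM in knockdown libraries and 305, 290.3, 287 and 315 CPM in scramble libraries, without overlap.

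The tRNA synthetases, which load amino acids onto tRNAs, did not move as one. Of 18 cytosolic enzymes 8 rose, none by more than 0.35, and 5 fell. VARS1, the valine enzyme, was at 232, 192, 225 and 246 CPM in knockdown libraries and 528, 505, 496 and 536 CPM in scramble libraries (-1.21 ± 0.06). QARS1 (-0.99 ± 0.07), MARS1 (-0.65 ± 0.05) and IARS1 (-0.53 ± 0.05) followed. Genes of the unfolded protein response counted 9 higher and 9 lower of 23, with DNAJB9 (1.11 ± 0.09) and XBP1 (0.72 ± 0.06) higher and HYOU1 (-0.92 ± 0.05) lower. Among proteasome subunits the lid enzyme PSMD14 (-0.51 ± 0.05) and the core subunit PSMB3 (-0.60 ± 0.06) fell. The list had 12 higher and 5 lower of 33, none past 0.31 upwards, and 7 were called higher without knockdown replicate 2, 7 without knockdown replicate 4 and 7 without scramble replicate 2.

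**Figure D4:**
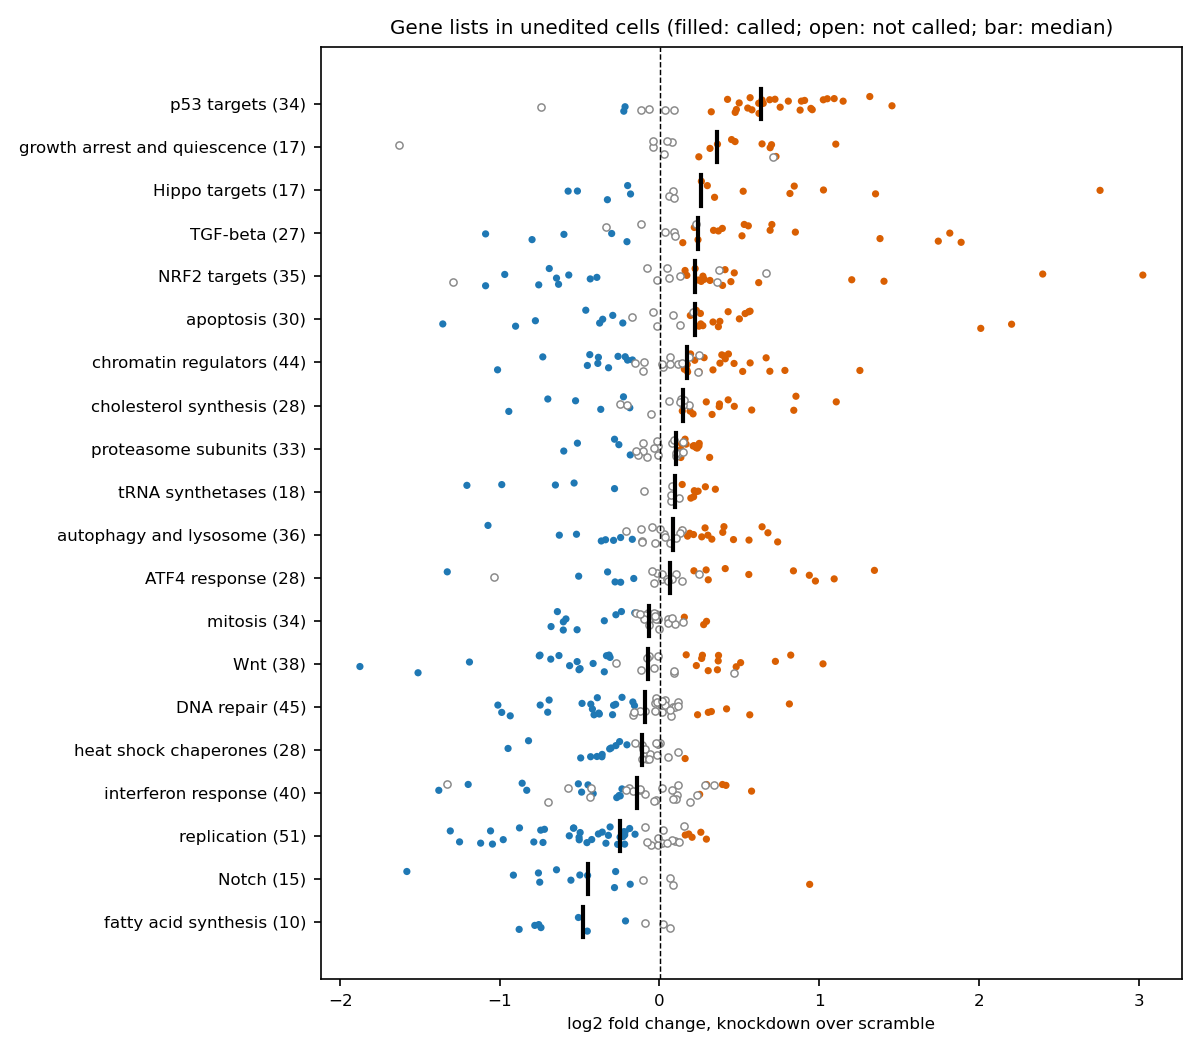
Log2 fold change of the knockdown for every tested member of 20 gene lists, 1 row per list ordered by median, with called members filled and a bar at the median. Targets of p53 have the highest median (0.63) and fatty acid genes the lowest (-0.48), and the dashed line marks the median of all 17104 genes (0.01).

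Among signalling pathways, the TGF-beta list had 16 of 27 higher and 5 lower and a median of 0.24. SMAD7, a TGF-beta target whose product inhibits the pathway, was at 21.2, 32.7, 22.6 and 24.9 CPM in knockdown libraries and 7.96, 6.55, 6.64 and 7.57 CPM in scramble libraries (1.82 ± 0.14). PMEPA1, another feedback inhibitor (1.75 ± 0.18), the signal transducer SMAD3 (0.69 ± 0.06) and, at a low level, TGFBI (1.89 ± 0.29) rose, while the ligand TGFB1 (-0.80 ± 0.06) fell. Of the 12 tested components of the pathway, 6 rose and 3 fell, with changes from -0.80 to 1.38. Of 17 Hippo pathway genes 9 rose and 5 fell, with CCN1 (1.35 ± 0.13), AMOTL2 (0.84 ± 0.11) and LATS2 (0.82 ± 0.09) higher and YAP1 lower (-0.20 ± 0.05). VGLL3 averaged 3.10 ± 1.09 CPM in knockdown cells and 0.453 ± 0.176 CPM in scramble cells (2.76 ± 0.29).

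Most Notch genes fell, 11 of 15 being lower and 1 higher, with a median of -0.45. LFNG, a fringe enzyme that modifies Notch receptors, was at 7.52, 4.12, 5.94 and 6.55 CPM in knockdown libraries and 19.4, 18.4, 15.1 and 19.4 CPM in scramble libraries (-1.58 ± 0.13). The ligand JAG2 (-0.64 ± 0.07), the target HES4 (-0.75 ± 0.10) and another fringe enzyme, RFNG (-0.76 ± 0.09), fell, and HEY1 rose (0.94 ± 0.20). Without knockdown replicates 2 and 3 together, 7 Notch genes were called lower. Of 12 feedback genes of ERK signalling 6 fell. DUSP6, the ERK phosphatase, was at 73.6, 67.6, 67.1 and 67.3 CPM in knockdown libraries and 134, 145, 148 and 151 CPM in scramble libraries (-1.07 ± 0.06), and the ETS factors ETV5 (-0.97 ± 0.07) and ETV4 (-0.65 ± 0.06) fell. The receptors ERBB2 (-0.84 ± 0.07) and ERBB3 (-0.88 ± 0.08) fell and EGFR rose (0.50 ± 0.10), within an EGF family list of 13 with 4 higher and 5 lower.

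Wnt genes moved both ways, 13 of 38 higher and 16 lower. NOTUM, RNF43, a ligase that removes Wnt receptors (-0.75 ± 0.07), and AXIN2, a scaffold that limits beta-catenin (-0.31 ± 0.07), fell together with SP5 (-1.19 ± 0.17), TCF7 (-0.68 ± 0.06), SOX9 (-0.56 ± 0.06) and the ligand WNT10B (-1.51 ± 0.10), while the secreted inhibitor DKK1 (0.73 ± 0.06) and the receptor FZD6 (0.82 ± 0.06) rose. HCT116 cells carry an activating change in beta-catenin, and LGR5, ASCL2 and LEF1 were too low to be tested. Of 21 immediate early genes 8 rose and 3 fell, with EGR1 (0.67 ± 0.07), FOSL2 (0.86 ± 0.06) and NR4A1 (0.93 ± 0.09) higher and KLF2 (-1.20 ± 0.09) and MYC (-0.25 ± 0.05) lower. Among clock genes 8 of 13 rose, with CRY2 at 0.90 ± 0.06 and CLOCK at 0.74 ± 0.07, and DBP fell (-0.72 ± 0.13).

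Adhesion genes included some of the largest falls. Beside ITGB4, at 294, 152, 267 and 255 CPM in knockdown libraries and 688, 656, 635 and 682 CPM in scramble libraries, ITGA3 (-0.98 ± 0.07) and the laminin chain LAMA5 (-1.01 ± 0.09) fell. The laminin chains LAMA3 (1.22 ± 0.12) and LAMB3 (0.90 ± 0.09) rose together with ITGAV (0.54 ± 0.08) and ITGA6, the usual partner of ITGB4 (0.44 ± 0.07). In all 9 of 22 genes of the list rose and 9 fell. Of 38 epithelial genes 11 rose and 17 fell, with the tight junction genes CLDN3 (-0.97 ± 0.09) and CLDN2 (-1.38 ± 0.19) and the keratin KRT23 (-1.01 ± 0.10) lower. EPCAM stood at -0.32 ± 0.05. In the mesenchymal list S100A4 fell (-0.99 ± 0.07) and fibronectin, FN1, rose (0.77 ± 0.09).

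Of 40 interferon-stimulated genes and regulators 12 fell and 5 rose. IFITM2, a membrane protein that blocks virus entry, was at 36.2, 28.5, 34.4 and 36.5 CPM in knockdown libraries and 62.7, 61.9, 56.1 and 65.5 CPM in scramble libraries (-0.86 ± 0.08). OAS3 (-0.83 ± 0.07), BST2 (-1.38 ± 0.29), STAT2 (-0.45 ± 0.07) and IRF3 (-0.51 ± 0.07) fell, RIGI, the RNA sensor (0.42 ± 0.08), and TBK1 (0.39 ± 0.06) rose. Scramble replicate 4 held the leukocyte transcripts, and without it 11 fell and 6 rose, with IFITM2 at -0.83. The count that rose was 9 without knockdown replicate 4. In antigen presentation the peptide loading genes TAPBP (-0.90 ± 0.07) and TAP2 (-0.72 ± 0.08) fell. In all 5 of 14 genes of that list fell. Of 18 NF-kB targets 11 fell and 3 rose, with IER3 (-0.63 ± 0.07), ICAM1 (-0.90 ± 0.14) and NFKB2 (-0.41 ± 0.06) lower and BIRC3 (0.56 ± 0.10) and NFKBIA (0.31 ± 0.06) higher. Changes in the list ran from -0.93 to 1.69, and the only called change of at least 2-fold was a rise.

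Most genes of translation and respiration were not called. Of 46 cytosolic ribosomal protein genes 8 rose, none by more than 0.21, and that count rested on single libraries, being 3 without knockdown replicate 4 and 5 without any one of knockdown replicate 1 and scramble replicates 2 and 3. Ribosome biogenesis genes had 7 of 25 lower, with BOP1 at -0.53 ± 0.07. Nuclear genes of the respiratory chain had 10 of 32 lower, with NDUFV1 at -0.75 ± 0.07, and those of the mitochondrial ribosome had 10 of 32 lower, with MRPL3 at -0.59 ± 0.06. Genes encoded by mitochondrial DNA had 5 of 13 lower, a count that was 10 without knockdown replicate 2, 8 without scramble replicate 3 and 1 without any one of knockdown replicates 1 and 3 and scramble replicates 2 and 4. Hypoxia and glycolysis genes had 8 higher and 8 lower of 35, with 17 higher without knockdown replicate 2 and 5 without any one of knockdown replicates 1 and 3 and scramble replicate 2. ADM, a peptide hormone gene induced by hypoxia, rose (1.45 ± 0.07) and the glucose importer SLC2A1 fell (-0.61 ± 0.09).

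In the RNA interference machinery that siRNAs use, 4 of 10 genes fell and 1 rose, a share near that of all genes (50.3%). AGO1, an Argonaute protein, was at 55.7, 39.7, 53.6 and 47.1 CPM in knockdown libraries and 118, 134, 142 and 109 CPM in scramble libraries (-1.36 ± 0.10), well apart, while AGO2, the Argonaute that cuts target transcripts, stood at -0.30 ± 0.10 with overlapping groups, a call lost without any one of scramble replicates 2 and 3 and knockdown replicate 4 (adjusted p up to 0.0895 by edgeR) and by DESeq2 (adjusted p = 0.0652). In the autophagy and lysosome list 15 of 36 rose and 8 fell, with NPC1, the cholesterol exporter of lysosomes, higher (0.74 ± 0.06) and the calcium channel MCOLN1 lower (-1.07 ± 0.09).

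Of 2141 long noncoding RNAs 616 were called (28.8%), and of 13404 protein-coding genes 7648 were (57.1%), at levels that were not matched. Of the called noncoding RNAs 263 rose and 353 fell. Where log2 CPM averages 1 or more and the groups lie apart, the largest rises with a gene name were in B3GALT5-AS1 (1.29 ± 0.21), NARF-AS2 (1.03 ± 0.15), PSMG3-AS1 (1.03 ± 0.11) and LUCAT1 (0.98 ± 0.14), and the largest falls in LINC00482 (-1.57 ± 0.21) and LINC02878 (-1.42 ± 0.19). The strand setting of the counting is not given in the sources used here, so reads of an antisense RNA cannot be told apart from those of its partner, and B3GALT5 rose beside B3GALT5-AS1.

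The knockdown effect in unedited cells was then set against that in the truncation cells, which share no library with it. Of the 8604 genes called in unedited cells, 7120 were among the 9706 (56.7%) called in truncation cells, 7050 of them in the same direction. The difference of the 2 effects was called for 974 genes (5.69%), 624 (3.65%) with the value in unedited cells above that in truncation cells and 350 (2.05%) below. Under upper-quartile scaling that split was 397 above and 502 below, and with knockdown replicate 2 left out 1661 genes were called. Of the 974, 704 were called in unedited cells. In 480 of them the truncation cells moved further in the same direction, in 83 the unedited cells did, and in 141 the signs were opposite.

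The semaphorin SEMA3C was at 49.9, 56.9, 53.5 and 42.3 CPM in unedited knockdown libraries and 22.9, 24.6, 26.6 and 24.5 CPM in unedited scramble libraries, a log2 fold change of 1.04 ± 0.07, against -0.19 ± 0.07 in truncation cells, a difference of 1.23 ± 0.10 with an adjusted p of 1.1e-07 by edgeR's quasi-likelihood test. It thus rose in unedited cells, and in truncation cells its smaller fall was called. Where log2 CPM averages 1 or more over the 16 libraries, AKR1B10 had the largest difference (2.19 ± 0.21), with the uncertainty given above. AKR1B10 rose in truncation cells too (0.83 ± 0.10). Its scramble mean there was 7.22 CPM, above the means of 0.533 CPM in unedited scramble cells and 4.38 CPM in unedited knockdown cells. IGFBP3 (-0.98 ± 0.18 in unedited cells, -2.25 ± 0.14 in truncation cells), PRF1 (-1.79 ± 0.15 and -2.99 ± 0.16 in that order) and DDIT4L (-0.59 ± 0.21 and -1.70 ± 0.18) had a smaller fall in unedited cells, and for DDIT4L that fall was not called without any one of scramble replicate 1 and knockdown replicates 2 and 4 (adjusted p up to 0.0855 by edgeR, with -0.35 without knockdown replicate 2) or by DESeq2 (adjusted p = 0.0616). SPARC, a secreted matrix protein, was not called in unedited cells (-0.17 ± 0.15), where it was low, and fell in truncation cells (-1.69 ± 0.08), and MIR1915HG did likewise (-0.063 ± 0.10 and -1.26 ± 0.08). DNAI3 rose in unedited cells (1.48 ± 0.16), against 0.32 ± 0.14 in truncation cells.

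In the other direction, the glutamate receptor gene GRIN2C rose by 1.34 ± 0.18 in unedited cells and 2.90 ± 0.17 in truncation cells, and ASIC4 by 2.54 ± 0.15 and 3.90 ± 0.14 in that order. MSLNL (-0.69 ± 0.16) and ANKRD10-IT1 (-0.68 ± 0.14) fell in unedited cells and rose in truncation cells (0.64 ± 0.17 and 0.49 ± 0.15), and with the GC trend removed the fall of MSLNL was -0.35 and not called (adjusted p = 0.058 by edgeR). YJEFN3 was not called in unedited cells (-0.21 ± 0.13) and rose in truncation cells (0.996 ± 0.13). In unedited cells a fall of it was called without knockdown replicate 2 (adjusted p = 0.0294 by edgeR).

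Among the gene lists, mitosis genes had the largest count of differences, 21 of 34, and their median was -0.065 in unedited cells and -0.36 in truncation cells, where 32 were called lower. KIF20A, for example, stood at -0.52 ± 0.05 in unedited cells and -1.07 ± 0.06 in truncation cells. Of the replication genes 11 of 51 differed, with a median of -0.25 in unedited cells and -0.46 in truncation cells. Cholesterol genes differed in 11 of 28 cases, and fatty acid genes in 5 of 10. For p53 targets the count was 4 of 34, where 5.69% of all genes were called, and CDKN1A stood at 1.46 ± 0.05 in unedited cells and 1.57 ± 0.05 in truncation cells, a difference of -0.11 ± 0.07 that was not called.

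The log2 fold change of the knockdown varied with the GC content of the transcripts, and the cause was not tested. Ordered by the GC content of the longest annotated transcript into 10 groups of protein-coding genes, the median log2 fold change was 0.12 in the group of lowest GC and -0.30 in the group of highest GC. In the highest group 52.2% of genes were called lower and 12.1% higher, and in the lowest group 16.6% were lower and 38.7% higher. Genes called lower had a median GC content of 55.1%, against 45.8% for genes called higher and 48.5% for the rest. Transcript length differed too, with a median of 3324 bases for genes called lower and 4262 bases for genes called higher. Relative to the scramble mean, the highest GC group stood at -0.24, -0.49, -0.31 and -0.16 log2 units in knockdown libraries and 0.082, -0.0066, -0.12 and 0.041 log2 units in scramble libraries. All 4 knockdown libraries lay below all 4 scramble libraries, and they differed among themselves, with replicate 2 lowest. With each library's GC trend removed 8764 genes were called, and CDKN1A (1.59), HMOX1 (2.54), GINS1 (-1.39) and POLD1 (-0.96) remained called with the same sign.

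**Figure D5:**
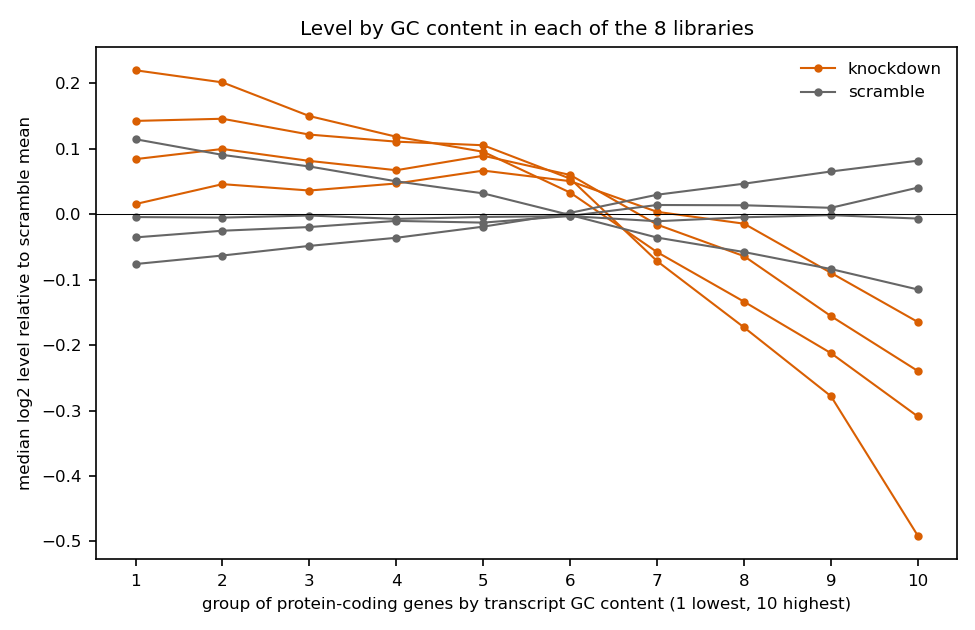
Median log2 level relative to the scramble mean (vertical axis) over 10 groups of protein-coding genes ordered by transcript GC content (horizontal axis), 1 line per library, knockdown libraries in orange and scramble libraries in grey. In the group of highest GC the 4 knockdown lines lie between -0.49 and -0.16 and the 4 scramble lines between -0.12 and 0.08.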

How the data were processed

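Total RNA of 16 HCT116 libraries was sequenced after a Nextera XT based preparation, per the labels' protocols, and the files deposited by the authors are raw gene counts, a copy restricted to 22916 genes and a table of normalized signal, which equals CPM computed from that copy with TMM scaling. Per the submitters' processing notes, STAR 2.7.3a, DESeq2, edgeR and limma and the build hg38 were used. Neither the counting program nor the annotation release or strand setting is given. Libraries were grouped by their library names and treatment labels, because the titles of the 4 truncation knockdown libraries say scramble.

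Of 60668 genes listed, 43699 had a count and 17104 passed edgeR's filterByExpr over all 16 libraries, and 17046 of these had a symbol in the reference tables. The raw counts, as deposited, were TMM-scaled, and edgeR 4.0.16 quasi-likelihood models were fitted (R 4.3.3), 1 coefficient per group, with Benjamini-Hochberg adjustment at 0.05. DESeq2 1.42.0 and limma-voom (limma 3.58.1) were alternatives. The fits were also run on simulated data with known changes, which held no GC trend, so that run cannot vouch for the calls here. CPM values printed are counts per 1000000 of TMM-scaled library size, and marker sums are scaled to raw library totals. Residual spread gave a common coefficient of variation of 7.25%, and libraries of one group differed by more than sampling noise. GC content came from the longest transcript of GENCODE 29, and the trend was removed by lowess with a span of 0.3.

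Genes were named by a rule: OTUD5, the 15 largest changes in each direction among called genes without overlap at a mean log2 CPM of at least 1, the 10 largest at a mean log2 CPM of at least 6 (abundant), 6 noncoding RNAs in each direction, up to 5 called members of each list and 8 differences in each direction. Identifiers without a symbol were left out, some genes are not reported here, and further list members were named after their values were seen. The groups and gene lists were chosen with earlier results of these data known.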

Additional observations from a re-analysis of the deposited data

Results flagged for a closer look

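Of 528 groups of 4 libraries screened (264 named genes in knockdown and in scramble libraries), 25 had 1 library far from the other 3, judged by the share of the group's range that lies between that library and its nearest neighbour. The limit on that share was Dixon's critical value, which chance passes in about 1 of 20 groups. A count of 25 in 528 groups is near that share, but the cases were unevenly spread. Knockdown replicate 2 held more of them than any other library, and the cause was not tested. Knockdown replicate 1 lay apart from the other knockdown libraries with a share of 0.928 for DUSP6. Knockdown replicate 2 lay apart from the other knockdown libraries with a share of 0.883 for CPA4, 0.856 for KRT80, 0.868 for SNN, 0.858 for PFN2, 0.897 for CCND1, 0.838 for POLH, 0.845 for FASN, 0.841 for SREBF1 and 0.850 for AMOTL2. For that library the share was also 0.869 for LATS2, 0.923 for ETV4, 0.898 for ERBB3 and 0.886 for DBP. Scramble replicate 1 lay apart from the other scramble libraries with a share of 0.860 for SESN2. Scramble replicate 2 lay apart from the other scramble libraries with a share of 0.907 for PMEPA1. Scramble replicate 3 lay apart from the other scramble libraries with a share of 0.840 for CDKN1B, 0.850 for BBC3, 0.943 for TET1, 0.830 for ITGA3, 0.951 for LINC02878 and 0.841 for ANKRD10-IT1. Scramble replicate 4 lay apart from the other scramble libraries with a share of 1.00 for TXNIP, 0.989 for BCL2L2 and 0.858 for BCL2L11. Another 3 measures of whole libraries also passed that limit, namely the summed leukocyte markers in scramble libraries (0.994), the number of genes with a count in knockdown libraries (0.879) and the summed endothelial markers in knockdown libraries (0.839).

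The knockdown effect differed between unedited and truncation cells, by edgeR's test of the difference itself with an adjusted p under 0.05, for 90 of the named genes. Each value below is the log2 fold change in unedited cells minus that in truncation cells. Of these calls, 27 were lost under at least 1 of the alternatives listed in the next section. Those lost were EPCAM, PDCD5, CRIM1, NOTUM, ANO1, ITGB4, POLD2, SPC25, KIF4A, PDCD4, BBC3, BTG2, BACH1, LSS, FADS1, SREBF2, DNAJB1, CHAC1, IARS1, SMAD3, HES4, DUSP6, TCF7, KRT23, OAS3, RIGI and BOP1. Upper-quartile scaling ended 21 of them, leaving out scramble replicate 2 ended 20, and leaving out knockdown replicate 4 ended 16. Without knockdown replicates 2 and 3 together the differences of SPC25 (adjusted p = 0.0637 by edgeR), BACH1 (adjusted p = 0.105) and RIGI (adjusted p = 0.0552) were not called. Replication genes with a positive difference had 0.48 for GINS1, 0.42 for TIMELESS, 0.41 for MCM5, 0.40 for RRM2, 0.36 for POLD2 and 0.28 for MCM4. Mitosis genes with a positive difference had 0.55 for KIF20A, 0.45 for AURKA, 0.45 for TOP2A, 0.43 for AURKB, 0.40 for CENPA, 0.37 for SPC25 and 0.33 for KIF4A. Cell cycle control genes with a positive difference had 0.74 for CDKN2B, 0.57 for CCNB1 and 0.46 for CDK4. Targets of p53 with a positive difference had 0.56 for MDM2, 0.34 for BBC3 and 0.28 for BTG2. DNA repair genes with a positive difference had 0.54 for XRCC4, 0.50 for XRCC1 and 0.48 for FANCE. Genes of the NRF2 list with a positive difference had 2.19 for AKR1B10, 0.65 for HMOX1, 0.38 for BACH1 and 0.31 for PGD. Cholesterol genes with a positive difference had 0.68 for SREBF1, 0.42 for LSS and 0.28 for SREBF2. Fatty acid genes with a positive difference had 0.85 for SCD, 0.50 for FASN and 0.46 for FADS1. tRNA synthetases with a positive difference had 0.48 for VARS1, 0.45 for QARS1 and 0.25 for IARS1. Wnt genes with a positive difference had 0.82 for AXIN2, 0.50 for NOTUM and 0.32 for TCF7. Wnt genes with a negative difference had -1.06 for DKK1. Adhesion genes with a positive difference had 0.73 for LAMA3, 0.58 for ITGB4, 0.50 for LAMB3 and 0.49 for MCAM. Other named genes with a positive difference had 1.72 for TGFBI, 1.52 for SPARC, 1.26 for IGFBP3, 1.23 for SEMA3C, 1.21 for PRF1, 1.20 for MIR1915HG, 1.17 for DNAI3 and 1.11 for DDIT4L. Next in size were 0.87 for LFNG, 0.77 for SLC2A1, 0.76 for FN1, 0.67 for MAP2, 0.61 for SH2D5, 0.58 for APEH, 0.53 for HES4 and 0.53 for VSNL1. Next in size stood 0.52 for KRT23, 0.51 for DNMT1, 0.51 for UHRF1, 0.50 for HYOU1, 0.50 for PFN2, 0.48 for SHMT2, 0.47 for ADAM15 and 0.46 for YAP1. Next in size lay 0.45 for EGR1, 0.41 for RIGI, 0.38 for BOP1, 0.34 for OAS3, 0.34 for PDCD5, 0.31 for EPCAM, 0.30 for ANO1 and 0.30 for MYC. Next in size followed 0.28 for DUSP6 and 0.28 for DNAJB1. Other named genes with a negative difference had -1.56 for GRIN2C, -1.36 for ASIC4, -1.32 for MSLNL, -1.21 for YJEFN3, -1.18 for ANKRD10-IT1, -1.14 for BMF, -0.73 for YPEL3 and -0.66 for CPA4. Next in size were -0.63 for CHAC1, -0.52 for CRIM1, -0.45 for ERBB3, -0.42 for PDCD4 and -0.35 for SMAD3.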

How the results depend on the processing

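The count of called genes stayed within 1.5-fold of 8604 under every alternative run (DESeq2 size factors, upper-quartile scaling, no filter, DESeq2, limma-voom, unedited libraries alone, each library left out, knockdown replicates 2 and 3 left out, and removal of the GC trend, which was added after seeing the data), with a range of 7876 to 8483 over single libraries left out. With the unedited libraries alone 7801 genes were called, and without knockdown replicates 2 and 3 together 7323 were. The count with at least 2-fold change, 978 as reported, ranged over 953 to 1111 with single libraries left out and was 1304 with no filter. It was 813 with the unedited libraries alone, 880 without knockdown replicates 2 and 3 and 866 with the GC trend removed. The count of differences between genotypes, 974 as reported, ranged over 653 to 1661 with single libraries left out, the highest without knockdown replicate 2, and was 1642 without knockdown replicates 2 and 3 and 1637 with the GC trend removed. The cause was not tested. Among named genes the sign turned for these. TOP2A, -0.011 as reported, was at 0.035 without scramble replicate 3, 0.009 without knockdown replicate 1 and 0.027 without knockdown replicate 4, and its range with single libraries left out was -0.049 to 0.035. TXNIP, -1.63 as reported, was at 0.052 by limma-voom and 1.90 without scramble replicate 4, and its range with single libraries left out was -2.46 to 1.90. ZNF385A, -0.22 as reported, was at 0.045 with the GC trend removed. FDXR, -0.22 as reported, was at 0.0022 with the GC trend removed. MIR1915HG, -0.063 as reported, was at 0.024 without scramble replicate 4 and 0.00073 with the GC trend removed, and its range with single libraries left out was -0.14 to 0.024. Of 4487 recomputed fold changes of named genes 4447 kept sign and side of the threshold, 15 lost and 16 gained a call. Counts within lists moved by over 1.5-fold in 88 of 1394 recomputations. Without knockdown replicates 2 and 3 together, 2 replication genes, 13 hypoxia genes and 13 ribosomal protein genes were called higher, and 2 TGF-beta, 5 autophagy, 6 mitochondrial ribosome and 5 hypoxia genes lower. With the GC trend removed 3 ATF4 genes were called lower, and 3 replication and 2 Notch genes higher. With no filter 7 proteasome genes were called higher and 9 mitochondrial DNA genes lower, and by DESeq2 1 of the last.

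Unedited libraries with the same replicate number did not deviate together, with correlations of 0.033, -0.06, 0.079 and 0.034 for the 4 numbers. The main fit therefore used no pairing, but such correlations cannot settle whether the libraries were handled in pairs. With a replicate block 8755 genes were called, 987 with at least 2-fold change, and 1150 for the difference between genotypes. Depth was nearly equal across libraries, and genes with too few counts for the filter were not tested.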
